A study of Homo sapiens with 30 samples.

Results

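The alpha-arrestins are a family of adaptor proteins, and 5 of the 27630 genes in the count tables were chosen by name as its members: ARRDC1, ARRDC2, ARRDC3, ARRDC4 and TXNIP. All 5 were among the 16504 genes with enough reads to test. They were picked as a family because ARRDC3 lay above both cell fractions in both RNA preparations that had been labelled at the nuclear lamina. The lamina and fraction values of ARRDC3 are therefore a description here and carry no test.

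Alpha-arrestins share the arrestin fold of the beta-arrestins. Most carry short proline-rich motifs that bind ubiquitin ligases of the NEDD4 family, and through them they bring receptors and transporters at the cell surface and on endosomes to ubiquitination, internalisation and sorting. TXNIP also binds thioredoxin and lowers glucose uptake, and its gene, like ARRDC4, is a well-known target of the glucose-responsive factors MLXIP and MLX. ARRDC3 is known for its action on integrin beta 4 (ITGB4), and ARRDC1 for the release of vesicles from the plasma membrane together with TSG101.

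RNA was counted in 8 libraries of HEK293FT, a transformed human embryonic kidney line, in 4 groups of 2 replicates: a nuclear fraction, a cytosolic fraction, and RNA recovered near the nuclear lamina without fixation (native lamina) or after paraformaldehyde fixation (PFA lamina). The lamina RNA was labelled with APEX2, an engineered peroxidase that tags nearby molecules, joined to lamin B1, a protein of the nuclear lamina. Cells of all 4 groups were unsynchronised and carried that construct by Lipofectamine 2000 transfection, so neither fraction comes from untransfected cells, and no lamina preparation from unlabelled cells is among the 8. The labels do not say whether the replicates of a group were separate cultures, so the tests measure only the spread between these libraries. The same series maps lamina-associated domains in HCT116, a human colorectal carcinoma line, which enters below only for the position of the genes.

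Total counts ran from 2321291 in PFA lamina replicate 2 to 8557777 in native lamina replicate 1, and the 5 genes together held 885 to 2911 of them. LMNB1, whose coding sequence the construct shares, took 0.304% to 0.520% of counts in the fractions and 2.96% to 9.49% in the lamina libraries. Across genes, PFA lamina replicate 1 correlated more closely with cytosolic replicate 1 (r = 0.959 on log2 values) than with its own replicate (r = 0.916). The summed level of 4 nuclear RNAs (MALAT1, NEAT1, MEG3 and KCNQ1OT1) was 13761 to 22810.5 normalised CPM (read counts put on a common library size that allows for composition) in the nuclear libraries and 970.0 to 1297 in the cytosolic ones. It reached 6343 to 13569 in the native lamina libraries but 712 and 4106 in the PFA lamina libraries. MALAT1 alone made up 10961.5 and 16521.8 of the sums in nuclear replicates 1 and 2, and MEG3 had at most 1 read in any library. The sum of 4 cytosolic RNAs (GAPDH, ACTB, EEF1A1 and RPLP0) was 899 to 1477 in the nuclear and 5050 to 8548 in the cytosolic libraries. It lay between the fractions in the lamina libraries, at 2136 to 2184 in the native and 1729 to 2890 in the PFA lamina. Of 8 genes of other cell types (PTPRC, ALB, HBB, CD34, PECAM1, INS, MYH7 and GFAP), 7 had too few reads to test, and the list summed to at most 9.34 CPM.

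ARRDC3 lies on hg19 chromosome 5 from 90664449 to 90679190 on the minus strand, with 5182 exonic bases. Its level in normalised CPM was 32.1 and 21.1 in the nuclear libraries and 44.1 and 57.1 in the cytosolic libraries. It was 120.8 and 124.7 in native lamina replicates 1 and 2, and 186.3 and 206.7 in PFA lamina replicates 1 and 2. The 4 groups therefore stood in the order nuclear, cytosolic, native lamina, PFA lamina, and no 2 neighbouring groups overlapped. The group means were 26.6 ± 7.73, 50.6 ± 9.17, 122.7 ± 2.74 and 196.5 ± 14.5 normalised CPM (SD, n = 2 each). These values rest on 123 to 1162 reads of the gene per library. The plot of levels by library sets ARRDC3 beside the other 4 genes.

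**Figure D1:**
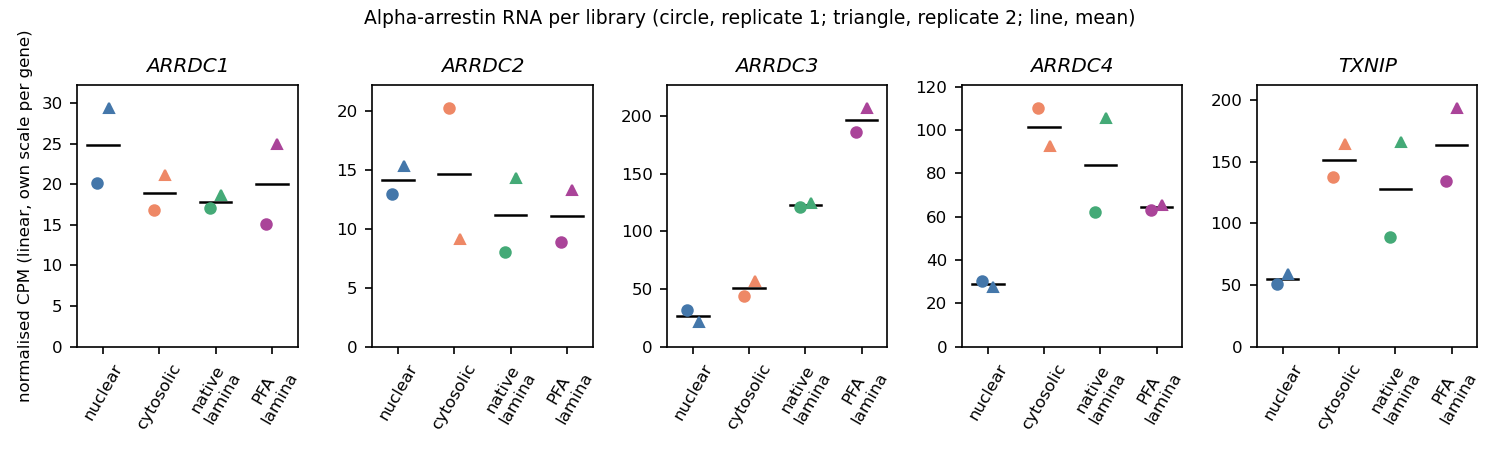
Normalised CPM of each alpha-arrestin gene in the 8 libraries (linear axis, each gene on its own scale); circles are replicate 1, triangles replicate 2 and lines the group means. ARRDC3 climbs from a mean of 26.6 in the nuclear fraction to 196.5 in the PFA lamina, ARRDC4 and TXNIP are low in the nuclear fraction alone, and for ARRDC1 and ARRDC2 all groups next to each other in mean level overlap.

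The fitted log2 fold change of ARRDC3 was 2.20 (SE 0.30) in the native lamina against the nuclear fraction and 1.28 (SE 0.29) against the cytosolic fraction. For the PFA lamina it was 2.88 (SE 0.31) against the nuclear and 1.96 (SE 0.30) against the cytosolic fraction. Without PFA lamina replicate 1, the library that resembled the cytosol, these last values were 2.97 and 1.98, and without PFA lamina replicate 2 they were 2.82 and 1.88. The smallest of the 4 values that placed ARRDC3 above both fractions was 1.28, and the nearest family member outside was TXNIP, at 0.11 (SE 0.33) for the PFA lamina and -0.25 (SE 0.33) for the native lamina against the cytosolic fraction. All 4 lamina libraries lay above all 4 fraction libraries for ARRDC3 and for no other member. Among all genes tested, 2.17% had that arrangement, and since it is the pattern that chose the gene nothing is read from it.

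In the 4 lamina comparisons the genes past an adjusted p of 0.05 are counted for scale only, since the choice of the genes used these comparisons and the passing of ARRDC3 follows from it. The counts were 3 of 5 higher for the native lamina against nuclear (3.87% of all genes), 3 of 5 higher for the PFA lamina against nuclear (9.63%), 1 of 5 higher for the native lamina against cytosolic (6.99%) and 1 of 5 higher for the PFA lamina against cytosolic (0.527%). The split of calls over all genes moved with the scaling: 639 higher and 568 lower for the native lamina against nuclear became 1656 and 237 with total-count scaling and 412 and 652 with upper-quartile scaling. The call of TXNIP for the native lamina against nuclear was lost with the size factors of DESeq2 or upper-quartile scaling. That of ARRDC4 for the PFA lamina against nuclear was lost when only the 4 libraries compared were fitted. The counts also depended on single libraries. For the native lamina against nuclear the count was 0 without either nuclear replicate, and 1 without native lamina replicate 2; for the PFA lamina against nuclear it was 1 without either nuclear replicate. The single count against cytosolic was 0 without either cytosolic replicate in both preparations, without native lamina replicate 2 in the native lamina and without nuclear replicate 1 in the PFA lamina. The log2 fold changes of ARRDC3 stayed between 1.1 and 3.21 in the 4 comparisons over all 8 omissions.

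**Figure D2:**
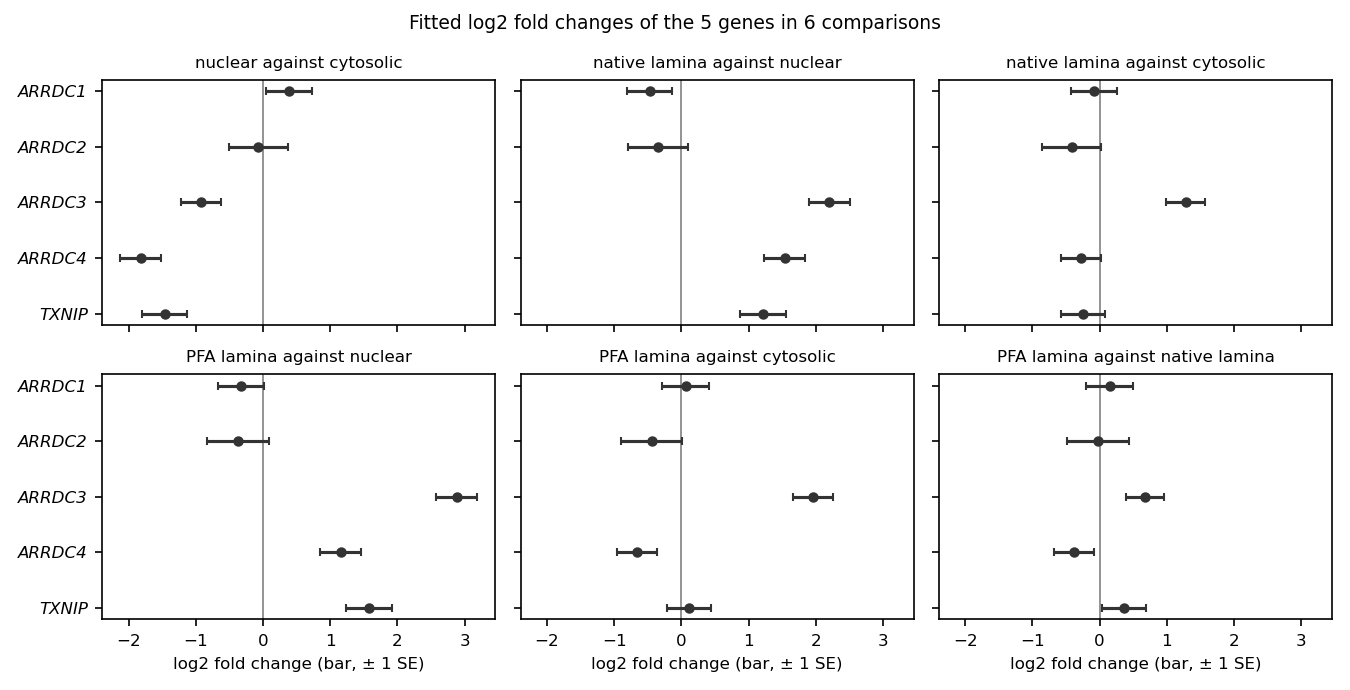
Fitted log2 fold change of each gene in each of 6 comparisons (points, bars ± 1 SE; 2 libraries per group). ARRDC3 lies to the right of 0 in all 4 lamina comparisons with a fraction, from 1.28 to 2.88, while ARRDC4 and TXNIP exceed 1 only against the nuclear fraction.

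The fraction values of ARRDC1, ARRDC2, ARRDC4 and TXNIP did not enter the choice of the genes, and their difference between the fractions could be tested. The choice did use the fraction values of ARRDC3. Its difference is therefore described without a test, and its call is counted for scale only. ARRDC4, TXNIP and ARRDC3 were lower in the nuclear fraction, measured against the cytosolic one, and ARRDC1 and ARRDC2 did not pass the test. ARRDC4, which lies on hg19 chromosome 15 from 98503933 to 98517068 on the plus strand, had 30.2 and 27.3 normalised CPM in the nuclear libraries against 110.0 and 92.6 in the cytosolic ones. Its log2 fold change was -1.82 (SE 0.31, 95% interval -2.48 to -1.16; edgeR adjusted p = 0.00104), and both nuclear libraries lay below both cytosolic ones. TXNIP, on hg19 chromosome 1 from 145438438 to 145442644 on the plus strand, had 50.9 and 58.9 normalised CPM in the nuclear and 137.8 and 164.7 in the cytosolic libraries. That is a log2 fold change of -1.46 (SE 0.34, 95% interval -2.19 to -0.74; edgeR adjusted p = 0.00415), again with no overlap. For ARRDC3 the difference was smaller, at -0.92 (SE 0.29, 95% interval -1.56 to -0.29).

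The count of 3 of 5 genes lower in the nuclear fraction stands beside 21.2% of all genes called lower and 26.1% called higher in this comparison. The median log2 fold change of the 5 genes was -0.92, which is the value of ARRDC3 itself, and that of all genes tested 0.13. The count and the median both include ARRDC3, whose fraction values entered the choice, so nothing is read from that median. All 3 genes called lower had both nuclear libraries below both cytosolic ones, as did 35.4% of all genes. Of all genes, 4314 were called higher and 3497 lower, and 5248 and 2519 with upper-quartile scaling. The calls of ARRDC4 and TXNIP held under every alternative fit. The call of ARRDC3 was lost with upper-quartile scaling (-0.64), without nuclear replicate 2 (-0.67) and without cytosolic replicate 2 (-0.75). A low nuclear level is a share of the RNA counted in that fraction, so less of a transcript in the nucleus and more of other RNAs there cannot be told apart. The part of the nuclear RNAs named above, which differed between the fractions in the other direction, was not tested.

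TXNIP and ARRDC4 were above the nuclear fraction in both lamina preparations and differed in the PFA lamina, which had the highest group mean for TXNIP and a mean below the cytosolic one for ARRDC4. In native lamina replicates 1 and 2 ARRDC4 had 62.1 and 105.4 normalised CPM, and in PFA lamina replicates 1 and 2 it had 63.0 and 65.5. TXNIP had 89.3 and 165.9 in the native and 134.5 and 193.5 in the PFA lamina. All 4 lamina libraries were above both nuclear libraries in either gene, an arrangement that 19.9% of all genes tested had, and the native lamina replicates overlapped the cytosolic ones. From the lowest mean, ARRDC4 ran nuclear, PFA lamina, native lamina, cytosolic, and TXNIP ran nuclear, native lamina, cytosolic, PFA lamina. Only the nuclear group was separate from its neighbour in either order.

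For ARRDC4 the log2 fold change was 1.54 (SE 0.30) in the native lamina and 1.16 (SE 0.31) in the PFA lamina against the nuclear fraction. Against the cytosolic fraction it was -0.28 (SE 0.29) and -0.66 (SE 0.30). TXNIP had 1.22 (SE 0.33) and 1.58 (SE 0.34) against nuclear, and -0.25 (SE 0.33) and 0.11 (SE 0.33) against cytosolic. Relative to the cytosol, then, neither gene had the lamina excess of ARRDC3. The native lamina values of both hung on replicate 2 of that group: without it ARRDC4 was 1.12 and TXNIP 0.72 above nuclear on the log2 scale.

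Over the 8 libraries the profiles of ARRDC4 and TXNIP, each as log2 normalised CPM centred on its own mean, were the closest pair in the family, with a root mean square distance of 0.36 on the log2 scale. ARRDC1 and ARRDC2 were 0.43 apart. ARRDC3 was 0.82 from TXNIP, 0.99 from ARRDC4, 1.28 from ARRDC1 and 1.37 from ARRDC2, so it had no close partner in the family. The points share their libraries, and these distances are descriptive.

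The promoters of the 2 genes with the closest profiles, and of ARRDC3, show how far their start regions resemble each other. The 250 bases before the start in RefSeq (GRCh38.p14, a later build than that of the counts) are given 5' to 3' on the gene's strand. Capitals mark matches to the carbohydrate response element, searched as a CACGNG followed by 5 free bases and another CACGNG, to CCAAT, which reads ATTGG on the other strand, and to TATAAA.
TXNIP, chr1:145996580-145996829, minus strand: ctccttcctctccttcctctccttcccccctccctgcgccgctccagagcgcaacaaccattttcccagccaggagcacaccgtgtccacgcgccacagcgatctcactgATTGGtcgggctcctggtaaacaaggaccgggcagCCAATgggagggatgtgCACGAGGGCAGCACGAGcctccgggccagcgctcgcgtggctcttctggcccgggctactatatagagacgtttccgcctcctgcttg
ARRDC4, chr15:97960453-97960702, plus strand: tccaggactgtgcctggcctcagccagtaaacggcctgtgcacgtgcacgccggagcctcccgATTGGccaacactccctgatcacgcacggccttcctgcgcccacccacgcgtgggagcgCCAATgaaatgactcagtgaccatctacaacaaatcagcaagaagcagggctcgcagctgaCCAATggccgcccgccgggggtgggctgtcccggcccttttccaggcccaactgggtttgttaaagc
ARRDC3, chr5:91383318-91383567, minus strand: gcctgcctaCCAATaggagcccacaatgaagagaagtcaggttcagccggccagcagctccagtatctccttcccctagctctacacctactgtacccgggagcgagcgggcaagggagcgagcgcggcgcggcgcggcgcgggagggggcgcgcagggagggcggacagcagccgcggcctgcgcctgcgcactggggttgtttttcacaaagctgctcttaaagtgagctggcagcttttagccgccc

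The TXNIP window held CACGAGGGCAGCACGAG, with its first base 88 bases before the start. That pattern was in 16 of the 35116 promoter windows of the table (0.0456%, both strands), and in no other window of the 5 genes. The ARRDC4 window did not match these letters, which says nothing about the factors. CCAAT was in 32% of all windows and TATAAA in 10.7%. On either strand CCAAT matched at 140 and 105 bases before the TXNIP start and at 187, 128 and 67 bases before the ARRDC4 start. ARRDC3 had 1 match, 241 bases before its first start, and none before its second. ARRDC1 had 1 CCAAT match, 80 bases before its start, and ARRDC2 had 1 at 93 bases together with a TATAAA at 30 bases before its second start. The windows of the 5 genes were 62.8% to 82% GC, against a median of 58% over all windows, except the one before the second TXNIP start at 40.4%. No motif match overlapped another.

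**Figure D3:**
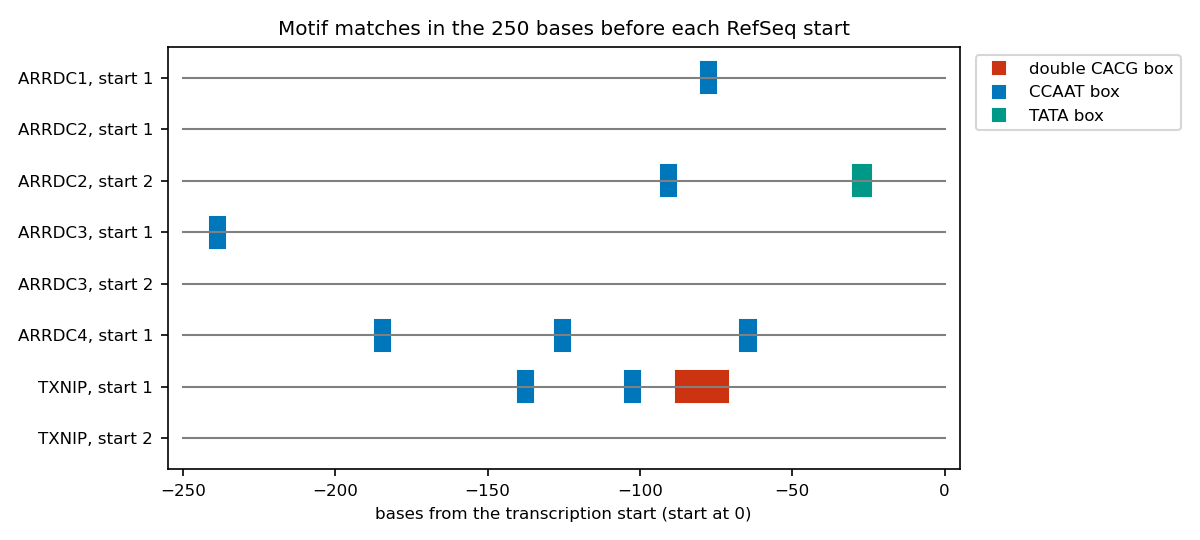
Positions of the motif matches in the 250 bases before each RefSeq start of the 5 genes (x axis, bases from the start; 1 row per start). TXNIP alone has the paired E-box match, 88 bases before its first start, and ARRDC4 has the most CCAAT matches, with 3.

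ARRDC1 and ARRDC2 were not called in any comparison of groups at this depth. ARRDC1 (hg19 chromosome 9, 140500092 to 140509812, plus strand) had 20.2 and 29.4 normalised CPM in the nuclear, 16.8 and 21.1 in the cytosolic, 17 and 18.7 in the native lamina and 15.2 and 25.0 in the PFA lamina libraries. Every pair of groups next to each other in mean level overlapped, while both nuclear libraries lay above both native lamina libraries. ARRDC2 (hg19 chromosome 19, 18111941 to 18124911, plus strand) had 12.9 and 15.3 in the nuclear and 20.2 and 9.09 in the cytosolic libraries. ARRDC2 had 8.0 and 14.3 in the native lamina and 8.87 and 13.2 in the PFA lamina libraries, and all its groups overlapped. It was counted on 36 to 151 reads per library. Nuclear against cytosolic, ARRDC1 differed by 0.39 (SE 0.34, 95% interval -0.34 to 1.12; edgeR adjusted p = 0.362) and ARRDC2 by -0.07 (SE 0.44, 95% interval -1.02 to 0.88; edgeR adjusted p = 0.907) on the log2 scale. Differences of up to about 1 on that scale are within these intervals. In the 4 lamina comparisons ARRDC1 ranged from -0.47 (SE 0.34) to 0.06 and ARRDC2 from -0.44 to -0.35 (SE 0.44).

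Per kilobase of exon, which allows levels of different genes to be compared, TXNIP was the most abundant member in all 8 libraries. Its mean level was 17.1 ± 1.77 normalised CPM per kilobase in the nuclear, 47.1 ± 5.91 in the cytosolic, 39.7 ± 16.9 in the native lamina and 51.0 ± 13.0 in the PFA lamina group (SD, n = 2). ARRDC3 had 5.13 ± 1.49 and 9.77 ± 1.77 in the nuclear and cytosolic groups, and 23.7 ± 0.528 and 37.9 ± 2.79 in the native and PFA lamina groups. As a share of the family, ARRDC3 made up 13.5% and 7.86% of the nuclear and 8.93% and 10.9% of the cytosolic libraries. In the native lamina libraries the share was 29.4% and 20.5%, and in the PFA lamina libraries 34.1% and 29.4%. ARRDC3 was thus a minor member in the fractions and the second most abundant in 3 of the 4 lamina libraries, with ARRDC4 slightly above it in native lamina replicate 2 at 22.0%.

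The other members took their largest shares in different libraries. ARRDC1 held 26.3% and 33.8% of the family in the nuclear libraries and 8.59% to 12.8% in the other 6. ARRDC4 held 28.4% and 22.6% in the cytosolic libraries and 11.9% to 22.0% elsewhere. TXNIP held 34.5% to 50.9%, and ARRDC2 2.86% to 10.01%. These shares sum to the whole, so a higher share of one gene lowers the rest.

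**Figure D4:**
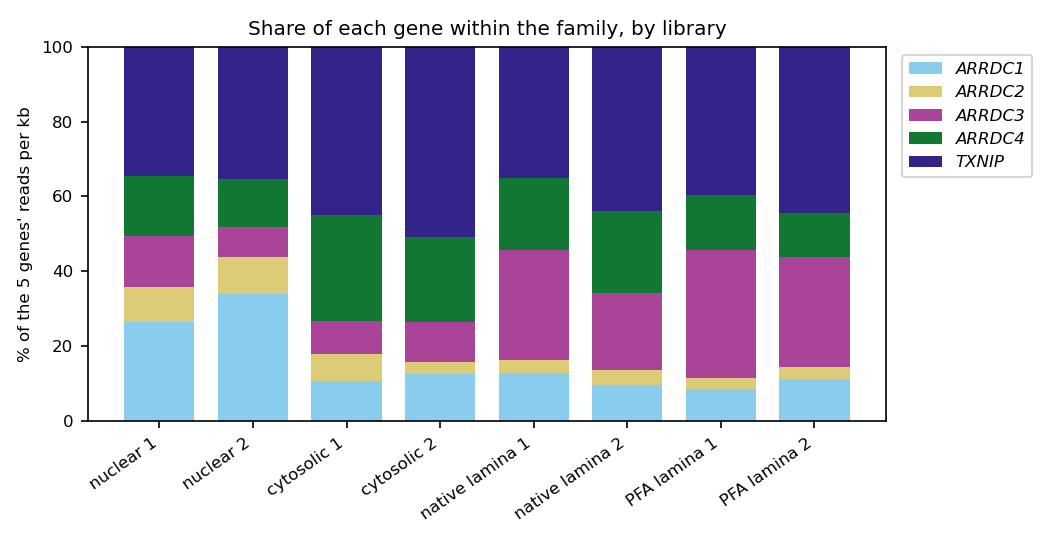
Share of each gene in the summed reads per kilobase of the 5 alpha-arrestin genes, by library (bars sum to 100%). TXNIP is the largest share in all 8 libraries, ARRDC1 is second in both nuclear libraries, and ARRDC3 takes 20.5% to 34.1% of the lamina libraries against 7.86% to 13.5% of the fractions.

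The PFA lamina was set against the native lamina to compare RNA recovered with and without fixation. No member passed this test, and no gene of the 16504 did (0% called by edgeR; 1821 at an unadjusted p under 0.05, and 73 higher and 150 lower by DESeq2). ARRDC3, whose lamina values entered the choice of the genes, is described here without a test. It was 0.68 higher on the log2 scale in the PFA lamina (SE 0.29), with both PFA libraries above both native ones. TXNIP differed by 0.36 (95% interval -0.35 to 1.07; edgeR adjusted p = 0.716) and ARRDC4 by -0.38 (95% interval -1.02 to 0.26; edgeR adjusted p = 0.667). ARRDC1 (0.15, 95% interval -0.60 to 0.89) and ARRDC2 (-0.03, 95% interval -1.01 to 0.96) were also within error. The absence of calls over all genes depended on PFA lamina replicate 2, which had the fewest reads. Without that library ARRDC3 was at 0.60, and without PFA lamina replicate 1 it was at 0.74.

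The partners of the family were read from lists of its known ligases, vesicle proteins, regulators and cargo. In the contrast of the fractions, 7 receptors and transporters from a list of known or proposed alpha-arrestin cargo were higher and none lower on the nuclear side, where 26.1% of all genes were called higher, with a median log2 fold change of 1.38 against 0.13 for all genes tested. NOTCH1, a signalling receptor, had 54.9 and 63.4 normalised CPM in the nuclear and 22.1 and 11.4 in the cytosolic libraries (log2 fold change 1.80, edgeR adjusted p = 0.00235). SLC11A2, an iron transporter, had 75 and 87.6 against 29.1 and 33.2 (1.38, edgeR adjusted p = 0.00193). SLC2A4 and SLC2A1, glucose transporters that TXNIP restrains, were higher by 1.86 and 1.09, the insulin receptor INSR by 1.38, the transferrin receptor TFRC by 1.27 and ITGB4 by 1.51. The count of 7 was 2 without nuclear replicate 2 and 2 without cytosolic replicate 1, and 7 under each of the other 3 scalings.

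For the proteins that act with the alpha-arrestins, the counts of lower genes stand beside 21.2% of all genes called lower and 26.1% called higher in the nuclear fraction. In the thioredoxin system 3 of 5 genes were lower (median log2 fold change -1.15): thioredoxin itself, TXN, by -2.18 (edgeR adjusted p = 0.00201), its mitochondrial form TXN2 by -1.51 and the reductase TXNRD1 by -1.15. That count was 1 without nuclear replicate 1. Among 12 genes of ESCRT, the membrane-scission machinery used by ARRDC1, 4 were lower and none higher (median -0.71), namely TSG101 (-1.74, edgeR adjusted p = 0.00240), MVB12A (-1.58), PDCD6IP (-1.28) and VPS4A (-1.02). The ESCRT count was 2 without nuclear replicate 1 and 7 without PFA lamina replicate 1 or when only the 4 fraction libraries were fitted. Of 10 tested NEDD4-family ligases and adaptors, the adaptors NDFIP1 (-1.13, edgeR adjusted p = 0.00760) and NDFIP2 (-0.76) were lower and none was higher (median -0.12), a share near that of all genes, while the ligases ITCH (-0.07) and WWP1 (-0.17) did not pass. The count of 2 in this list was 0 without nuclear replicate 1 or cytosolic replicate 1, 1 without nuclear replicate 2 or cytosolic replicate 2 and under upper-quartile or total-count scaling, and 3 without PFA lamina replicate 1. Under upper-quartile scaling the median of the list was 0.15.

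Other arrestin-fold genes had 4 of 6 lower in the nuclear fraction and 1 higher (median -1.07), beside 21.2% and 26.1% of all genes. The lower ones were beta-arrestin 2, ARRB2 (-1.38, edgeR adjusted p = 0.00521), and the retromer-type subunits VPS26A (-1.33), VPS26B (-1.21) and VPS26C (-0.93), the last listed under its older symbol DSCR3. The higher one was the cone arrestin ARR3, with 26 and 29 reads in the nuclear libraries and 0 in both cytosolic ones, where 3 reads are the limit that a count of 0 allows. Without cytosolic replicate 2 the count of lower genes was 2. ARRDC5, the remaining alpha-arrestin, had at most 2 reads in any library and was not tested. Of the glucose-sensing factors, MLXIPL was higher in the nuclear fraction (17.6 and 21.8 normalised CPM against 2.94 and 3.17; 2.68, edgeR adjusted p = 0.00245), MLX was lower (-0.84, edgeR adjusted p = 0.0323) and MLXIP did not pass (-0.35). The call of MLX was lost with upper-quartile scaling and without nuclear replicate 1, nuclear replicate 2 or cytosolic replicate 2.

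Near the lamina the number of partners called differed between the comparisons. Against the nuclear fraction the native lamina had no call in any of the 6 lists, where 3.87% of all genes were called higher and 3.44% lower (edgeR; 8 of the 43 genes at an unadjusted p under 0.05, and 1 higher and 1 lower by DESeq2). In the native lamina against the cytosolic fraction, 9 of the 43 genes were called, beside 6.99% of all genes called higher and 6.77% lower. ARR3, NOTCH1 (1.46) and INSR (1.41) were higher. TXN (-2.83, edgeR adjusted p = 0.00503), TXN2 (-1.95), TSG101 (-1.45), MVB12A (-1.45), NDFIP1 (-1.05) and VPS26A (-1.01) were lower. In the PFA lamina against the nuclear fraction, 6 of the 43 genes were called, beside 9.63% of all genes called higher and 7.81% lower. VPS37B (1.00) and TXNRD1 (0.99) were higher. SLC2A1 (-2.38, edgeR adjusted p = 0.00623), TFRC (-1.13), SLC11A2 (-0.84) and ARR3 were lower. The 9 calls of the native lamina against cytosolic were 2 without cytosolic replicate 1 and 1 without cytosolic replicate 2 or native lamina replicate 2. The 6 calls of the PFA lamina against nuclear were 0 without nuclear replicate 1, 1 without nuclear replicate 2 or PFA lamina replicate 1, and 13 higher and 8 lower without PFA lamina replicate 2. No list gene was called by edgeR for the PFA lamina against the cytosolic fraction, where 0.527% of all genes were higher and 0.145% lower. Nor was any called for the PFA lamina against the native lamina. At an unadjusted p under 0.05 (edgeR) there were 9 and 4 list genes, and DESeq2 called 3 and 1 lower. ITGB4, a cargo gene of ARRDC3, passed in none of the lamina comparisons.

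Neighbouring and overlapping transcripts were read for the genes whose counts they could touch. The counting ignored strand, so reads of a gene and of an antisense partner cannot be told apart where exons coincide. ARRDC3-AS1 runs opposite to ARRDC3 and shares no exonic base with it; its first exon (chromosome 5, 90676164 to 90676741, hg19) lies in an ARRDC3 intron, 49 bases from the nearest ARRDC3 exon. Its level was 7.0 and 2.58 normalised CPM in the nuclear, 3.34 and 2.54 in the cytosolic, 4.47 and 4.27 in the native lamina and 2.59 and 4.41 in the PFA lamina libraries, and it was not called in any of the 6 comparisons. The antisense gene thus did not follow the 4-step order of ARRDC3. It was counted on 12 to 45 reads per library, and at that depth an order could be missed. ARRDC1-AS1 shares 29 exonic bases with ARRDC1, had group means of 15.5 to 18.6 normalised CPM and was not called either. EHMT1, 3631 bases from ARRDC1, had 56.5 and 51.4 in the nuclear and 82.4 and 70.0 in the cytosolic libraries. It had 107.7 and 95.5 in the native and 90.5 and 109.6 in the PFA lamina libraries, all above the fractions. It was called higher for the PFA lamina against nuclear (0.89, edgeR adjusted p = 0.0379). POLR3GL, a subunit gene of RNA polymerase III 13591 bases from TXNIP, had 4.20 and 4.30 in the nuclear and 19.7 and 13.5 in the cytosolic libraries (-1.97, edgeR adjusted p = 0.00248). It lay at 12.3 and 12.8 in the native and 10.3 and 6.99 in the PFA lamina libraries, so its nuclear libraries were the lowest. Against nuclear, POLR3GL was called higher in the native lamina (1.56, edgeR adjusted p = 0.0391) and was not called in the PFA lamina (1.05). NR2F1-AS1, 2065871 bases from ARRDC3, was higher in the nuclear fraction against the cytosolic one (1.34, edgeR adjusted p = 0.0288). Other gene rows whose span covers TXNIP share no exonic base with it. Each span runs from the lowest to the highest exon position of the row, and reached 85474150 bases for SRGAP2D and 62258550 for FAM72C. Such a row need not be a gene that lies over TXNIP. Against the cytosolic fraction, NBPF10 (2.49, edgeR adjusted p = 0.00153), NBPF25P (1.70) and NBPF9 (0.82) were higher in the nuclear fraction. SRGAP2D (-0.48), FAM72C (-0.75), NBPF20 (1.06) and NBPF8 (0.64) did not pass. SRGAP2D had 13.9 and 11.3 normalised CPM in the nuclear and 16.7 and 18.6 in the cytosolic libraries. It had 29.8 and 27.6 in the native and 24.8 and 22.1 in the PFA lamina libraries. Its nuclear libraries were thus the lowest, and its lamina libraries were above both fractions. It was called higher for the native lamina against nuclear (1.19, edgeR adjusted p = 0.0356). These rows belong to families of near-identical copies, so their counts are uncertain. HFE2, the nearest gene on the other side, had 0 to 7 reads per library.

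Position relative to lamina-associated domains was known only in HCT116, as 1 deposited domain list per cell-cycle stage. ARRDC4 lay wholly inside a domain in G1 (chromosome 15, 97300001 to 98900000, hg19) and in G2 (97300001 to 99000000). In S the domain ended at 98300000, 0.204 Mb short of the gene. Of 16313 tested genes, 2.36% overlapped a domain in G1, 3.44% in G2 and 2% in S. ARRDC3, the member with the highest lamina RNA level relative to the fractions, was 26.8 Mb from the nearest domain in all 3 stages. ARRDC2 was 1.78 Mb away, ARRDC1 17.4 to 17.5 Mb, and TXNIP 1.84 to 1.94 Mb in G1 and G2 and 12.8 Mb in S. The lists carry no spread between replicates, and the cell line differs from that of the RNA.

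Among 7994 genes with at least 50 reads in each lamina library and 300 exonic bases, the 5 whose centred profiles were closest to ARRDC3 over the 8 libraries were ZNF467 (distance 0.45 on the log2 scale), ZNF319 (0.48), KLF10 (0.48), NAIF1 (0.54) and EVI5L (0.55). ZNF467 and ZNF319 encode zinc-finger proteins, and KLF10 encodes a zinc-finger transcription factor induced by TGF-beta. KLF10 had 18.7 and 21.6 normalised CPM in the nuclear, 46.1 and 62.4 in the cytosolic, 54.6 and 76.2 in the native lamina and 88.7 and 126.5 in the PFA lamina libraries. Its cytosolic and native lamina libraries overlapped, unlike those of ARRDC3. ZNF467 had 3.27 and 5.33, 5.48 and 9.94, 12.2 and 17.7, and 19.8 and 21.3 in the same order, with no overlap between neighbouring groups. In that ranking TXNIP was 229th, ARRDC4 1337th and ARRDC1 5926th. ARRDC2, with 48 and 36 reads in the PFA lamina libraries, was below the read limit and would have come 6796th. Ranked by Pearson correlation instead, 1 of the 5 closest genes, ZNF319, was the same (r = 0.958 over 8 libraries).

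**Figure D5:**
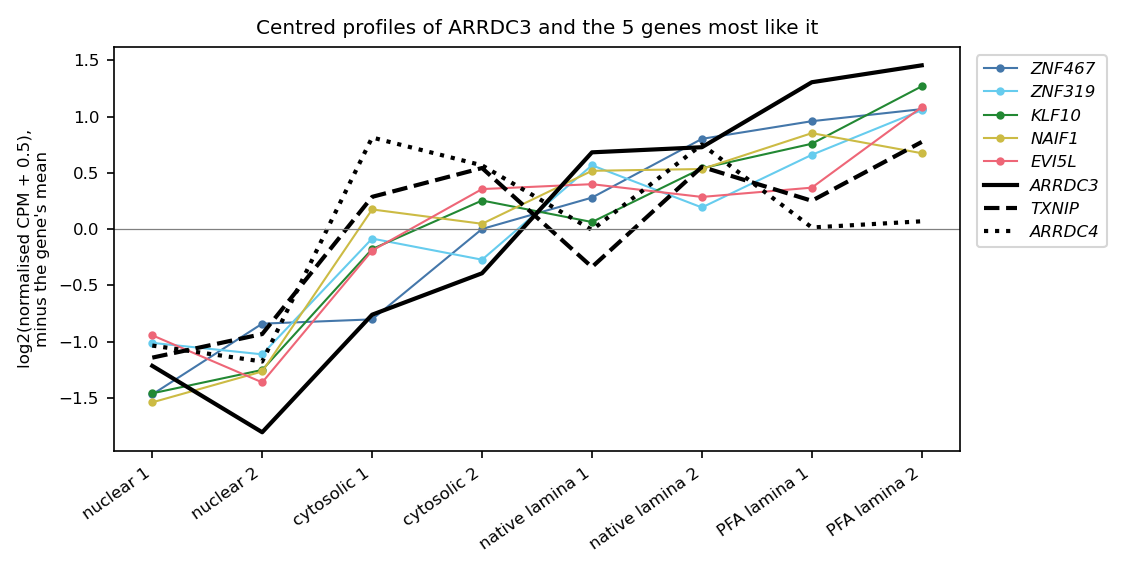
Log2(normalised CPM + 0.5) minus the gene's own mean over the 8 libraries, for ARRDC3 (thick solid line) and the 5 genes with the closest profiles. TXNIP (thick dashed line) and ARRDC4 (thick dotted line) are drawn beside them. Points are libraries in the order nuclear, cytosolic, native lamina, PFA lamina. The 5 genes were chosen for this likeness, which runs from 0.45 to 0.55 in root mean square distance.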

How the data were processed

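Per the file headers, the authors made the deposited values as whole-number counts of reads per gene with featureCounts 1.5.2 on hg19 gene models (RefFlat), ignoring strand and counting a read for each gene it overlapped. The submitters' processing notes name TopHat2 2.1.1 and Bowtie2 2.3.2. Per the labels' protocols, Trizol served for RNA isolation and libraries were ribodepleted. In 1 cytosolic table the header's output name is that of a nuclear library, and its input name matches its label. The lamina domain lists were deposited as intervals, taken as given (other values, no score used).

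From the counts, 1 model of all 8 libraries with a term per group was fitted in edgeR 4.0.16 (R 4.3.3; quasi-likelihood, TMM scaling, edgeR's default filter by group), which kept 16504 of 27630 genes. P-values were adjusted by Benjamini-Hochberg over all of them, with a call at 0.05. Standard errors are the fold change over the root of F, and intervals use the fit's t distribution. Normalised CPM divide by the TMM-scaled library size. The fits were tested on simulated data.

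The members and lists were chosen with earlier results of these data known. Genes named are the 5 members, the called genes of each list with at most 3 others, overlapping or nearest genes, and the 5 closest to ARRDC3. ARR3 has no fold printed because its cytosolic libraries are at 0. Alternatives were 3 other scalings, no filter, the replicate number as a block, a fit of the 4 libraries compared, DESeq2 1.42.0, and each library left out. 1 gene of the cargo list is not reported here and is left out of that list's counts and median. Protein sequences and the ChIP and K562 samples were not analysed here.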

Additional observations from a re-analysis of the deposited data

How the results depend on the processing

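Limits: 2 libraries per group, a PFA lamina library of 2321291 counts, and no unlabelled control. Over the 15 alternatives the number of members called moved by over 1.5 times only when a library was left out. Leaving out 1 library, counts ran from 2 to 3 for nuclear against cytosolic, 0 to 3 for the native lamina against nuclear, 0 to 1 against cytosolic, 1 to 3 for the PFA lamina against nuclear and 0 to 1 against cytosolic, and stayed at 0 for the PFA against the native lamina. Where values turned sign, the gene was not called in that comparison. For nuclear against cytosolic, ARRDC2 was 0.19 with upper-quartile scaling, 0.044 without nuclear replicate 1 and 0.61 without cytosolic replicate 1, and ran from -0.54 to 0.61 over the omissions. For the PFA against the native lamina the omissions ran from -0.24 (without PFA lamina replicate 2) to 0.47 for ARRDC1, from -0.40 to 0.44 for ARRDC2 (0.44 without native lamina replicate 2, 0.24 without PFA lamina replicate 1), from -0.72 to 0.042 (without native lamina replicate 2) for ARRDC4, and from -0.027 (without native lamina replicate 1) to 0.87 for TXNIP; the cause was not tested. In the lamina comparisons with a fraction, omissions took the native lamina against cytosolic from -0.25 to 0.079 for ARRDC1, -0.89 to 0.28 for ARRDC2, -0.71 to 0.051 for ARRDC4 and -0.76 to 0.13 for TXNIP, and the PFA lamina against cytosolic from -0.32 to 0.35, -0.90 to 0.25 and -0.17 to 0.30 for ARRDC1, ARRDC2 and TXNIP. Against nuclear, ARRDC2 reached 0.035 in the native and ARRDC1 0.025 in the PFA lamina. With total-count scaling the native lamina against cytosolic was 0.22 for ARRDC1, 0.0027 for ARRDC4 and 0.063 for TXNIP, and with upper-quartile scaling 0.041 for ARRDC1.

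The deviations of same-numbered replicates from their group means correlated between -0.055 and 0.33 over the 6 pairs of groups and above 0.1 in 4 of them, so a pairing by number is not given by every pair, nor by the labels. With the replicate block, 3, 3, 1, 3, 1 and 0 members were called in the order above, as without it. ARRDC3 for nuclear against cytosolic was -0.92 with the block. Over all genes, the block gave 961 higher and 885 lower for the native lamina against nuclear and 279 and 125 for the PFA lamina against cytosolic (87 and 24 without it).

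Over all genes, upper-quartile scaling shifted the median log2 fold change from 0.13 to 0.40 for nuclear against cytosolic, and total-count scaling from -0.069 to 0.22 and from 0.097 to 0.39 for the native lamina against nuclear and cytosolic. Total-count scaling gave 1646 higher and 581 lower for the native lamina against cytosolic (1154 and 1117 otherwise) and 1891 and 511 for the PFA lamina against nuclear (1589 and 1289), where upper-quartile scaling gave 1174 and 1604. Without a filter, 1240 and 1469 genes were called for the native lamina against nuclear, 988 and 538 for the PFA lamina against cytosolic and 123 and 149 for the PFA against the native lamina. DESeq2 called 552 and 430 for the PFA lamina against cytosolic, and 35 and 14 came with its size factors in edgeR. Fitting the 4 libraries compared gave 2013 and 2355 for the native lamina against nuclear, 1832 and 1758 against cytosolic, 355 and 249 for the PFA lamina against nuclear and 34 and 20 against cytosolic. Leaving out a library took the native lamina calls against nuclear to 1 and 9 (nuclear replicate 1) and the PFA lamina calls against cytosolic to 0 (nuclear replicate 1 or either cytosolic replicate), and up to 1703 and 1166 (PFA lamina replicate 1). Extending each lamina domain by 100000 bases changed no member's overlap.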
